A study of Mus musculus with 18 samples.

Results

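The genes described here carry out class I antigen presentation. They are the 10 genes Psmb8, Psmb9, Psmb10, Tap1, Tap2, Tapbp, B2m, H2-K1, H2-D1 and Nlrc5, chosen by name, out of 10133 distinct entries in the 3 tables analysed. The tables listed 8 of them at 0 min, 9 at 15 min and 9 at 120 min, and 6 at all 3 times. Polyadenylated RNA came from 2 immortalized mouse embryonic fibroblast lines. One carried the eIF2aS51A genotype (S51A), in which the serine of eIF2α that stress kinases phosphorylate is replaced by alanine, and the other was Wild-Type (WT). Each line was sampled untreated (0 min) and after 15 or 120 min in 500 µM hydrogen peroxide, with 3 samples labelled for each of the 6 groups. The series design text speaks of duplicates instead.

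Each table gives 1 value per line and gene, in FPKM (fragments per kilobase of transcript, scaled to the mapped fragments of the library), so levels can be compared between genes. No spread between samples can be given, and sequencing depth was not used here. All 7555, 8308 and 6119 entries at 0, 15 and 120 min carry a q-value of at most 0.05 for a difference between S51A and WT, as the authors tested it. "Higher" and "lower" below rest on that call and name the S51A line relative to WT. Absence from a table means that no difference was called or that the gene was left off, and it does not show equal levels. With 1 line for each genotype, effects of S51A and of the line cannot be told apart, and whether the samples of a group were separate cultures is unstated. In such bulk RNA, more cells with a transcript and more transcript per cell cannot be told apart either.

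Nearly all cells show fragments of their own proteins on class I molecules at the cell surface, where cytotoxic T cells inspect them. Proteasomes cut the proteins, the TAP transporter carries the peptides into the endoplasmic reticulum, tapasin helps load them, and a heavy chain with β2-microglobulin displays them. Interferons raise most of these genes together. They also replace the catalytic subunits of the standard proteasome by those of the immunoproteasome, and fibroblasts at rest keep most of this machinery low.

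Every listed member was higher in S51A, 8 of 8 at 0 min, 9 of 9 at 15 min and 9 of 9 at 120 min. Among all listed entries, 49.6%, 49.9% and 50.9% were higher at the same times. At least 2-fold higher were 7, 6 and 8 members, against 22.1%, 20.2% and 26.5% of all entries. The median log2 ratio of S51A over WT among the members was 3.29 at 0 min, 2.35 at 15 min and 2.99 at 120 min, beside -0.28, -0.21 and 0.40 over all listed genes without a group at 0. The median at 15 min is over other members, since Psmb9 was then not listed and B2m and Psmb10 entered. For the 8 members listed at 0 min, the difference was present before any peroxide was given, while B2m and Psmb10 were not listed then. Over all times, the ratios ranged from 1.46-fold for B2m at 15 min to 242-fold for Psmb8 at 120 min.

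**Figure D1:**
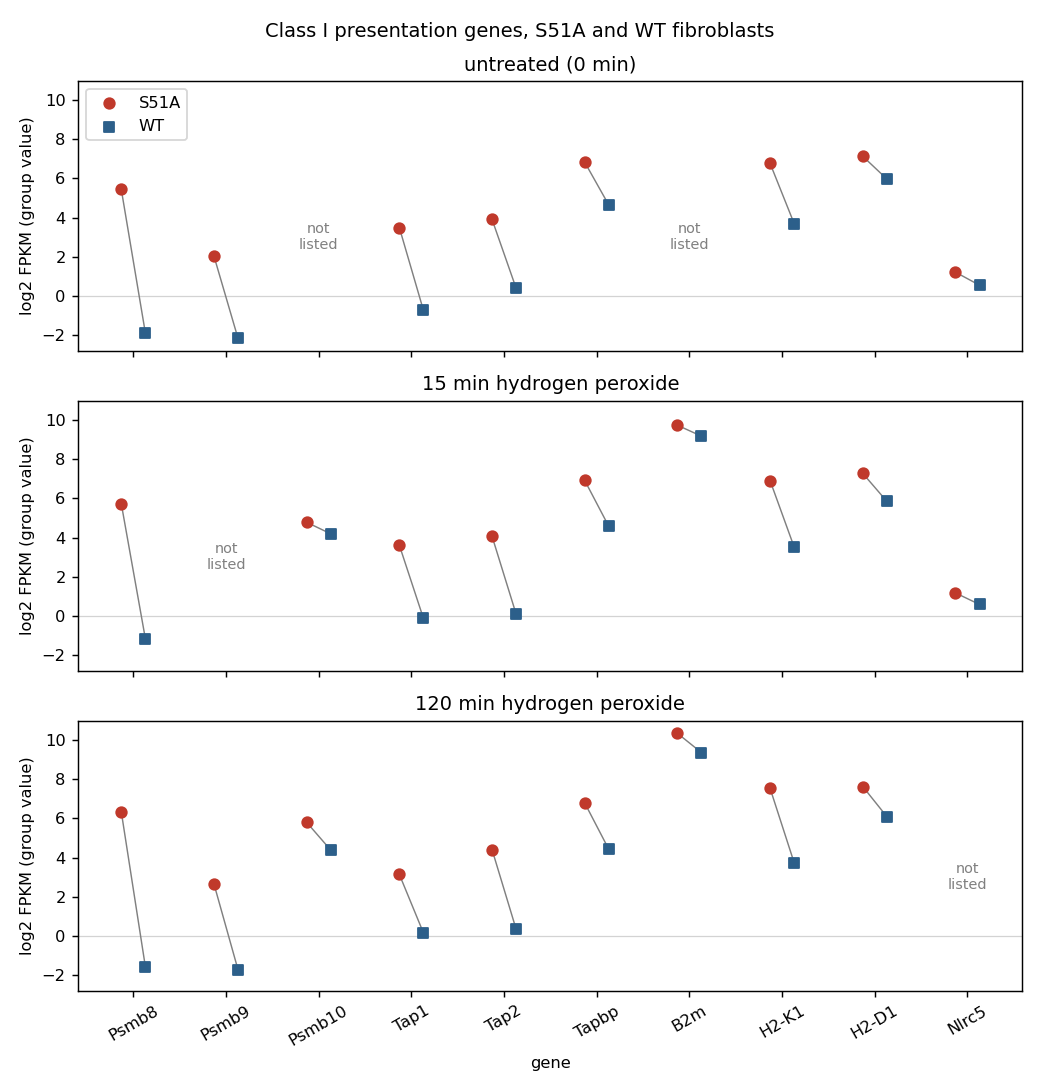
Log2 FPKM (authors' group value) of the 10 genes in S51A (red circles) and WT (blue squares) at 0, 15 and 120 min, each pair joined by a line. Each listed gene is higher in S51A, with the widest gap for Psmb8 and narrow gaps for B2m, Psmb10 and Nlrc5.

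Promoter sequence was available for 8 of the 10 members, all but Tap2 and Nlrc5, from RefSeq on GRCm38.p6, which is the mm10 build of the tables. Each window covers 300 bases around a transcript start, most of them upstream of it. Those of H2-K1 (chr17:34000298-34000597, minus strand), H2-D1 (chr17:35262844-35263143, plus strand), B2m (chr2:122147437-122147736, plus strand) and Psmb8 (chr17:34197945-34198244, plus strand) are shown because they held matches to binding motifs of factors that act on class I genes. The Tap1 window (chr17:34187306-34187605, plus strand) is shown because Psmb9 starts on the other strand within it. Capitals mark the matches and positions are counted from the start site.
H2-K1: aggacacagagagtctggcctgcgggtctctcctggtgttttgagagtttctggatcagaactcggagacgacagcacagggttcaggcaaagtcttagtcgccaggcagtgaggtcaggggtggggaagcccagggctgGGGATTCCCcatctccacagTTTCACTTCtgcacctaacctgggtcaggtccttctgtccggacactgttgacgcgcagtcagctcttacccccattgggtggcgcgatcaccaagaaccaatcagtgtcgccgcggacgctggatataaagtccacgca
H2-D1: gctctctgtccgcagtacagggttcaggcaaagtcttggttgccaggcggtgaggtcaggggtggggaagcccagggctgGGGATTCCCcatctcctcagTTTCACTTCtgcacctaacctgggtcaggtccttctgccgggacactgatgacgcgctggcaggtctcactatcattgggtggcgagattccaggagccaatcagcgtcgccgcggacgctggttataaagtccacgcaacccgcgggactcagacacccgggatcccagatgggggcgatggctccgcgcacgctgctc
B2m: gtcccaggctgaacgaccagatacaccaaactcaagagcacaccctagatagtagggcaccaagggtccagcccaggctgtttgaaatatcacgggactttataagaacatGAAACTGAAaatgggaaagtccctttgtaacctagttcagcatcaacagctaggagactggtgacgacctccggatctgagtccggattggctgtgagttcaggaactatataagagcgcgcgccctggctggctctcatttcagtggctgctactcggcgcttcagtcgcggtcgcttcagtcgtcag
Psmb8: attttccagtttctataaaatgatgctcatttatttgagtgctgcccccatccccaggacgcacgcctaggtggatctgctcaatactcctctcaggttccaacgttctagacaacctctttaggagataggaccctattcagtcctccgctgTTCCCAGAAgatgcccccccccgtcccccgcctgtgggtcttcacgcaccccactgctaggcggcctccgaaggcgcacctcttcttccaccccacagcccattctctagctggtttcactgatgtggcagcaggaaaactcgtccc
Tap1: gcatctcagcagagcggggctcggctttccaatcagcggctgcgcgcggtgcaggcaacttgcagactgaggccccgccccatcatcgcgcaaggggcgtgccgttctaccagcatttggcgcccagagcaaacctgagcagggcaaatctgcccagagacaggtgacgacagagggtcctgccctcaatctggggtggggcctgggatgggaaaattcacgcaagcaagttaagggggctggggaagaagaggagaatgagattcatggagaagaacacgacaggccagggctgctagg

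Both strands were searched for GGGANTCCC (NF-kB), GAAANNGAA and GAANNGAAA (cores of the interferon-stimulated response element), TTCNNNGAA (the gamma-activated site) and GCAACA (the core of the class I X box). The NF-kB letters occurred in the windows of H2-K1 and H2-D1 and in 0.767% of all 32851 windows. In H2-K1 they began at position -110 and in H2-D1 at position -170. In both, the core GAANNGAAA, held by 7.52% of windows, followed on the strand opposite to the printed one, at -90 in H2-K1 and at -150 in H2-D1. The windows of H2-K1 and H2-D1 are near identical around these letters, so their matches are not separate occurrences. RefSeq gives H2-K1 another start, which matches the end of its deposited interval and puts the same letters at -124 and -104. The core GAAANNGAA, in 8.56% of windows, occurred in B2m at -139. TTCNNNGAA, in 8.3% of windows, occurred in Psmb8 at -97. GCAACA, in 12.8% of windows, occurred in none of the 8 members' windows. Among the constitutive subunit genes, GCAACA occurred in the window of Psmb5, and GAANNGAAA in that of Psmb6, so matches were not confined to class I genes. The starts of Tap1 and Psmb9 face away from each other with 225 bases between them, so their windows share 275 bases. No motif searched for occurred there. A match is a run of letters and no evidence of binding, and a missing one says nothing about the factor.

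The proteasome subunit genes held the largest difference. Psmb8 encodes β5i, the immunoproteasome subunit that replaces β5 and cuts after hydrophobic residues (chromosome 17, 34198195 to 34201454 in mm10). At 0, 15 and 120 min it was at 43.4, 53.1 and 81.0 FPKM in S51A, against 0.268, 0.444 and 0.335 FPKM in WT. In WT the transcript was close to absent at every time, while in S51A it was of the order of a constitutive subunit. The ratios were 162-fold, 120.3-fold and 242-fold. With at least 5 FPKM in either line and no group at 0, Psmb8 ranked 9 of 6062, 13 of 6625 and 5 of 4797 genes by ratio. It met that minimum through S51A alone, so the ranks are a description. Its q-values in the authors' deposited table were 0.000118, 0.000102 and 0.000548.

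Psmb9 encodes β1i, which takes the place of β1 (chromosome 17, 34182099 to 34187330). It was at 4.08 FPKM in S51A and 0.221 FPKM in WT at 0 min, and at 6.28 FPKM in S51A and 0.299 FPKM in WT at 120 min. These are differences of 18.5-fold and 20.97-fold at low levels. Its q-values in the authors' deposited table, 0.0122 and 0.0272, were the highest of any member, and it was not listed at 15 min. Psmb10 encodes β2i, which takes the place of β2 (chromosome 8, 105935728 to 105938392). It differed far less, at 27.5 FPKM in S51A and 18.2 FPKM in WT at 15 min, and 55.7 FPKM in S51A and 20.8 FPKM in WT at 120 min. Unlike Psmb8 and Psmb9, it was well expressed in WT, and it lies outside the class I gene region of chromosome 17. The degree of the difference varied among the immunoproteasome subunits, with 1.51-fold for Psmb10 beside 120.3-fold for Psmb8 at 15 min.

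The constitutive subunits that these replace went the other way before treatment. All 3 were lower in S51A at 0 min, and both that were listed at 15 min were lower, beside 50.4% and 50.1% of all entries. At 120 min both listed ones were higher, beside 50.9% of all entries. Psmb5, the β5 gene, was at 73.0 FPKM in S51A and 106 FPKM in WT at 0 min, and at 168 FPKM in S51A and 97.7 FPKM in WT at 120 min. Psmb6, the β1 gene, was at 142 FPKM in S51A and 276 FPKM in WT at 0 min, 163 FPKM in S51A and 219.8 FPKM in WT at 15 min, and 342 FPKM in S51A and 261 FPKM in WT at 120 min. Psmb7, the β2 gene, was at 179.8 FPKM in S51A and 362 FPKM in WT at 0 min, and at 199.5 FPKM in S51A and 294 FPKM in WT at 15 min.

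Set against its counterpart, Psmb8 was at 59.5% of the Psmb5 level in S51A and 0.252% in WT at 0 min, and at 48.3% in S51A and 0.342% in WT at 120 min. Psmb9 stayed a small share of Psmb6, with 2.88% in S51A and 0.0799% in WT at 0 min, and 1.83% in S51A and 0.115% in WT at 120 min. Psmb10 was at 13.8% of Psmb7 in S51A and 6.21% in WT at 15 min, the one time both were listed. On the log2 scale these shares differed between S51A and WT by 7.88 and 7.14 for Psmb8, 5.17 and 4.0 for Psmb9 and 1.15 for Psmb10. With a pseudocount of 1 FPKM the differences shrank to 5.66 and 5.17 for Psmb8 and to 3.01 and 2.10 for Psmb9, whose WT levels were all under 1 FPKM. They are RNA levels and do not give the make-up of proteasomes.

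**Figure D2:**
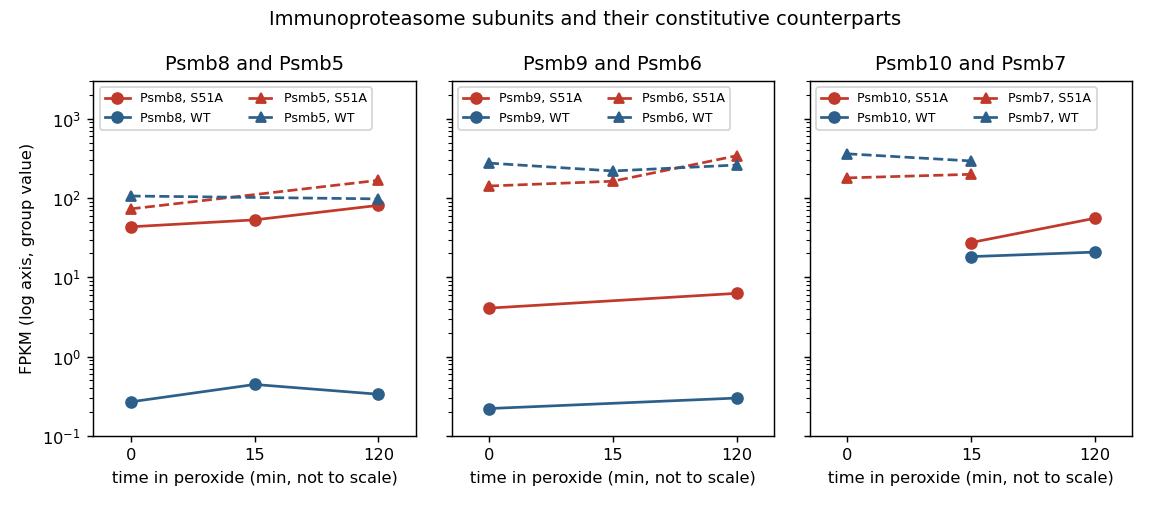
FPKM (log axis, authors' group values) of each immunoproteasome subunit gene (circles, solid lines) and its constitutive counterpart (triangles, dashed lines) in S51A (red) and WT (blue) at 0, 15 and 120 min, with lines joining the times at which a gene was listed. Psmb8 is at 59.5% and 48.3% of Psmb5 in S51A, and at 0.252% and 0.342% of it in WT, at 0 and 120 min. Psmb5 and Psmb6 are lower in S51A at 0 min and higher at 120 min, when Psmb7 was not listed.

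The genes for the proteasome activator PA28, which opens the proteasome and is also raised by interferon, followed the members. Psme1 was at 104 FPKM in S51A and 59.3 FPKM in WT at 0 min, and at 164 FPKM in S51A and 53.8 FPKM in WT at 120 min. Psme2 was at 139 FPKM in S51A and 65.3 FPKM in WT at 0 min, and at 309 FPKM in S51A and 55.0 FPKM in WT at 120 min, a 5.66-fold difference. Psme3, the gene of the nuclear activator PA28γ, was lower in S51A at all times, at 54.6 FPKM in S51A and 97.7 FPKM in WT at 0 min. In the list of 9 activator and assembly genes, 2 were higher and 5 lower at 0 min, and 2 higher and 4 lower at 15 min. At 120 min 7 were higher and 2 lower. Of all entries, 50.4%, 50.1% and 49.1% were lower at 0, 15 and 120 min. The assembly factor gene Pomp, which builds both kinds of proteasome, was at 250.7 FPKM in S51A and 439.6 FPKM in WT at 0 min, and at 680.3 FPKM in S51A and 393 FPKM in WT at 120 min.

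Both chains of the peptide transporter were low in WT. Tap1 (chromosome 17, 34187556 to 34197225) was at 11.2, 12.2 and 8.81 FPKM in S51A at 0, 15 and 120 min, against 0.599, 0.914 and 1.11 FPKM in WT. The ratios were 18.8-fold, 13.4-fold and 7.95-fold. Tap2 (chromosome 17, 34204479 to 34216321) was at 15.0, 16.8 and 21.3 FPKM in S51A, against 1.31, 1.06 and 1.27 FPKM in WT, with ratios of 11.5-fold, 15.8-fold and 16.8-fold. The lines did not come near each other for either gene at any time. Tap1 and Psmb9 overlap in the GENCODE M21 annotation although their deposited intervals do not, and the strand setting of the counting was not found in the sources used. Their reads may thus not be fully separated.

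Tapbp encodes tapasin, which holds empty class I molecules at the transporter (chromosome 17, 33919478 to 33929290). It was at 114, 121 and 111 FPKM in S51A, against 24.9, 23.8 and 21.4 FPKM in WT. Its ratio varied little, at 4.53-fold, 5.10-fold and 5.17-fold. Among 10 further genes of peptide trimming and loading, 4 were higher and 3 lower at 0 min, and 3 higher and 4 lower at 15 min. At 120 min 4 were higher and 4 lower. This split was near that of all entries, of which 49.6%, 49.9% and 50.9% were higher. Tapbpl, the gene of the tapasin-related peptide editor TAPBPR, was at 8.52, 7.62 and 5.78 FPKM in S51A at 0, 15 and 120 min, against 2.44, 2.36 and 1.62 FPKM in WT. Erap1, which trims peptides inside the endoplasmic reticulum, was at 18.6, 17.4 and 13.6 FPKM in S51A, against 8.06, 9.13 and 8.06 FPKM in WT. The cytosolic peptidase gene Tpp2 was lower in S51A, at 35.3, 33.4 and 22.9 FPKM, against 52.4, 58.9 and 49.9 FPKM in WT.

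The heavy chain genes differed unequally. H2-K1 (chromosome 17, 33996012 to 34000333) was at 109, 120.3 and 186 FPKM in S51A at 0, 15 and 120 min, against 12.9, 11.4 and 13.3 FPKM in WT. The ratios were 8.4-fold, 10.6-fold and 14.03-fold. H2-D1 (chromosome 17, 35263094 to 35267497) was at 140.1, 155 and 198 FPKM in S51A, against 62.7, 57.7 and 68.1 FPKM in WT, or 2.23-fold, 2.69-fold and 2.91-fold. H2-D1 was thus the more abundant heavy chain in WT by a wide margin, while both were of like level in S51A at 120 min. Of all 75-base stretches, the read length used, 1.55% of the H2-K1 transcript and 6.9% of that of H2-D1 also occurred in transcripts of other genes. For Psmb8, Psmb9, Psmb10, Tap1, Tap2, B2m and Nlrc5 the share was 0. Heavy chain genes vary in sequence between mouse strains, the labels name no strain for either line, and its part in these levels was not tested.

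B2m encodes β2-microglobulin, the light chain of every class I molecule. It was the most abundant member where listed, at 855 FPKM in S51A and 580 FPKM in WT at 15 min, and at 1305 FPKM in S51A and 657 FPKM in WT at 120 min. These are 1.46-fold and 1.99-fold, at the low end of the members. Its deposited interval (chromosome 2, 122120108 to 122186189) also spans the genes Patl2 and Trim69. Of the 22 other class I and class I-like genes, 8 were listed at 0 min (7 higher, 1 lower) and 7 at 15 min (6 higher, 1 lower). At 120 min 6 were listed, all 6 higher. Beside them, 49.6%, 49.9% and 50.9% of all entries were higher at 0, 15 and 120 min. H2-T23, the gene of the nonclassical molecule Qa-1, was at 22.2, 25.6 and 32.7 FPKM in S51A, against 7.16, 7.06 and 7.21 FPKM in WT. H2-Q4 was at 26.4, 30.7 and 32.2 FPKM in S51A, against 7.52, 7.01 and 8.28 FPKM in WT. Of the 75-base stretches, 13.1% for H2-T23 and 7.91% for H2-Q4 also occurred in other genes. The exception was Hfe, the iron-regulating class I-like gene, at 1.51 FPKM in S51A and 2.55 FPKM in WT at 0 min, and at 1.09 FPKM in S51A and 1.96 FPKM in WT at 15 min.

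Nlrc5 encodes a transactivator that acts at class I promoters (chromosome 8, 94472763 to 94527272). It was at 2.31 FPKM in S51A and 1.45 FPKM in WT at 0 min, and at 2.25 FPKM in S51A and 1.495 FPKM in WT at 15 min. The ratios, 1.59-fold and 1.51-fold, were small beside those of Psmb8, Tap1 or H2-K1. Of 17 transcription factor genes that act on class I promoters, 15, 12 and 9 were listed at 0, 15 and 120 min. Of these, 14, 11 and 8 were higher, beside 49.6%, 49.9% and 50.9% of all entries. At each time 1 was lower. Irf1, which binds the interferon-stimulated response element, was at 43.4, 47.8 and 67.7 FPKM in S51A at 0, 15 and 120 min, against 18.9, 18.1 and 11.0 FPKM in WT. Irf9, the DNA-binding part of the ISGF3 complex, was at 20.0, 22.6 and 14.5 FPKM in S51A, against 5.03, 4.63 and 2.68 FPKM in WT. Its partner gene Stat2 was at 11.6, 13.8 and 6.96 FPKM in S51A, against 2.27, 2.99 and 1.95 FPKM in WT. The X box factor genes Rfx5, Rfxap and Rfxank differed by 1.66-fold, 1.49-fold and 1.91-fold at 0 min, all higher in S51A. Nfyc was the gene that was lower at 0 and 15 min, and Rela the one at 120 min, at 24.8 FPKM in S51A and 37.3 FPKM in WT.

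Of 14 interferon ligand, receptor and signalling genes, 7 were higher and 2 lower at 0 min, and 7 higher and 2 lower at 15 min. At 120 min 5 were higher and 1 lower. The share of all entries that were higher was 49.6%, 49.9% and 50.9% at these times. No ligand gene of the list was listed at 0 or 15 min. Ifnb1, the interferon β gene, was listed at 120 min with 2.62 FPKM in S51A and at 0 in WT. Ifnar2, a chain of the type I receptor, was at 39.7, 44.9 and 50.6 FPKM in S51A, against 22.2, 20.5 and 19.7 FPKM in WT. The feedback inhibitors were divided. Usp18, which damps the type I receptor, was at 9.65, 11.96 and 13.4 FPKM in S51A, against 0.454, 0.536 and 0.953 FPKM in WT. Socs3 was also higher, at 27.7 FPKM in S51A and 14.6 FPKM in WT at 0 min and at 33.4 FPKM in S51A and 17.5 FPKM in WT at 15 min. Socs1, which blocks JAK kinases, was lower in S51A, at 7.06 FPKM in S51A and 12.6 FPKM in WT at 0 min and at 10.2 FPKM in S51A and 15.6 FPKM in WT at 15 min. Jak1 was lower at all 3 times, at 30.1 FPKM in S51A and 56.5 FPKM in WT at 120 min.

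**Figure D3:**
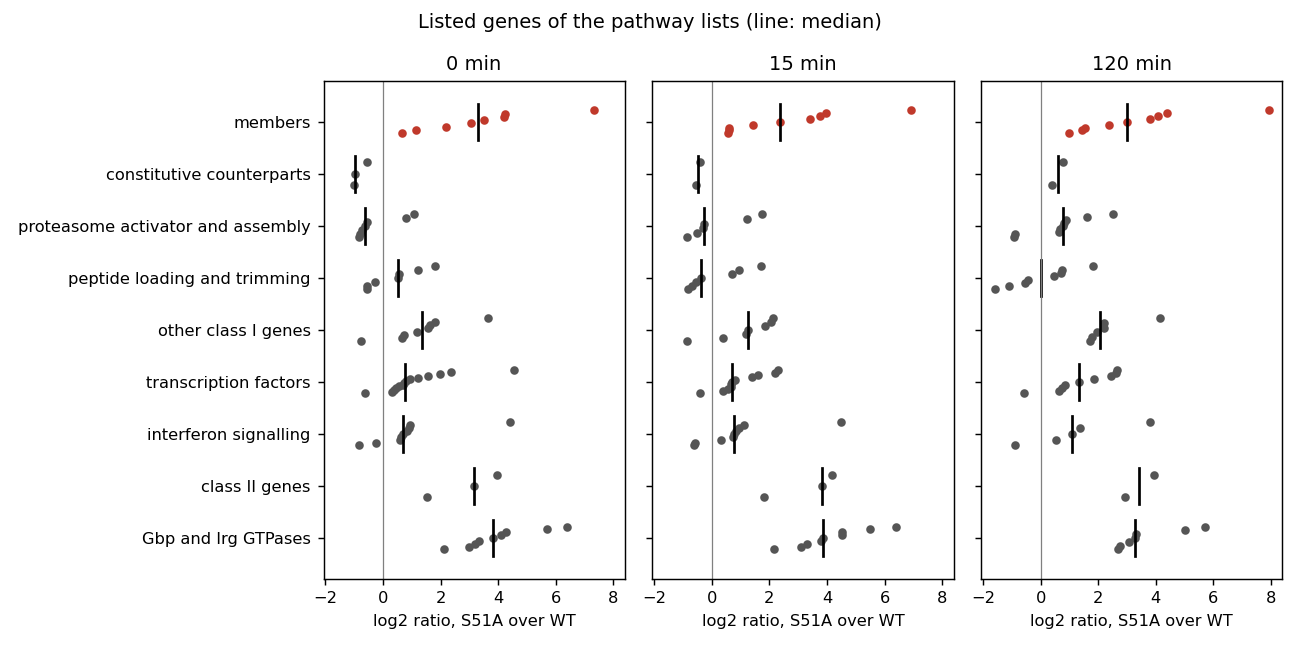
Log2 ratio of S51A over WT (authors' deposited values) for each listed gene of the members (red) and of 8 related lists (grey) at 0, 15 and 120 min, with a black line at each median and genes with a group at 0 left out. The members lie right of 0 throughout, while the constitutive counterparts lie left of 0 at 0 and 15 min and right of it at 120 min.

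Of the 10 members, 7 lie between Tapbp and H2-D1 on chromosome 17 (33919478 to 35267497), a stretch that holds class I and class II genes. The other genes of the stretch did not share one direction. Most of them lie between Tap2 and H2-D1, where no member lies. At 0 min the 7 members had a median log2 ratio of 3.52, and the 26 other listed genes in that stretch, leaving out class I and class II genes, had 13 higher and 13 lower and a median of 0.08. At 15 min the medians were 3.58 for 6 members and 0.01 for 33 other genes, of which 17 were higher and 16 lower. At 120 min they were 3.81 for 7 members and 0.82 for 27 other genes, of which 20 were higher and 7 lower. At that time 50.9% of all entries were higher. The medians, unlike the counts, leave out genes with a group at 0, which were Hspa1a at 15 min and Lst1 at 120 min. Few other genes were listed between H2-K1 and Tap2, and most of those were higher. At 0 min they were Ring1, Col11a2 and Brd2, with log2 ratios of 0.53, 1.44 and -0.33. At 120 min they were H2-Ke6 and Slc39a7, with 1.43 and 0.51. Some other genes of the whole stretch, named after their values were seen, had ratios above that of the member H2-D1 (1.16, 1.43 and 1.54). Gpsm3 was at 1.62, 2.44 and 2.40 at 0, 15 and 120 min, and there were more such genes than are named here. The heat shock genes Hspa1a and Hspa1b had log2 ratios of 5.07 and 3.37 at 0 min, and the complement gene C4b had 2.22, while 13 of the 26 were lower. At 15 min C4b was at 4.95 and Hspa1b at 2.80, while 16 of the 33 other genes were lower. At 120 min Hspa1a was at 6.73, Hspa1b at 4.50, Ltb at 3.27 and C4b at 2.58, while 7 of the 27 were lower. Psmb10, Nlrc5 and B2m lie elsewhere and had smaller ratios than most members within the region.

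**Figure D4:**
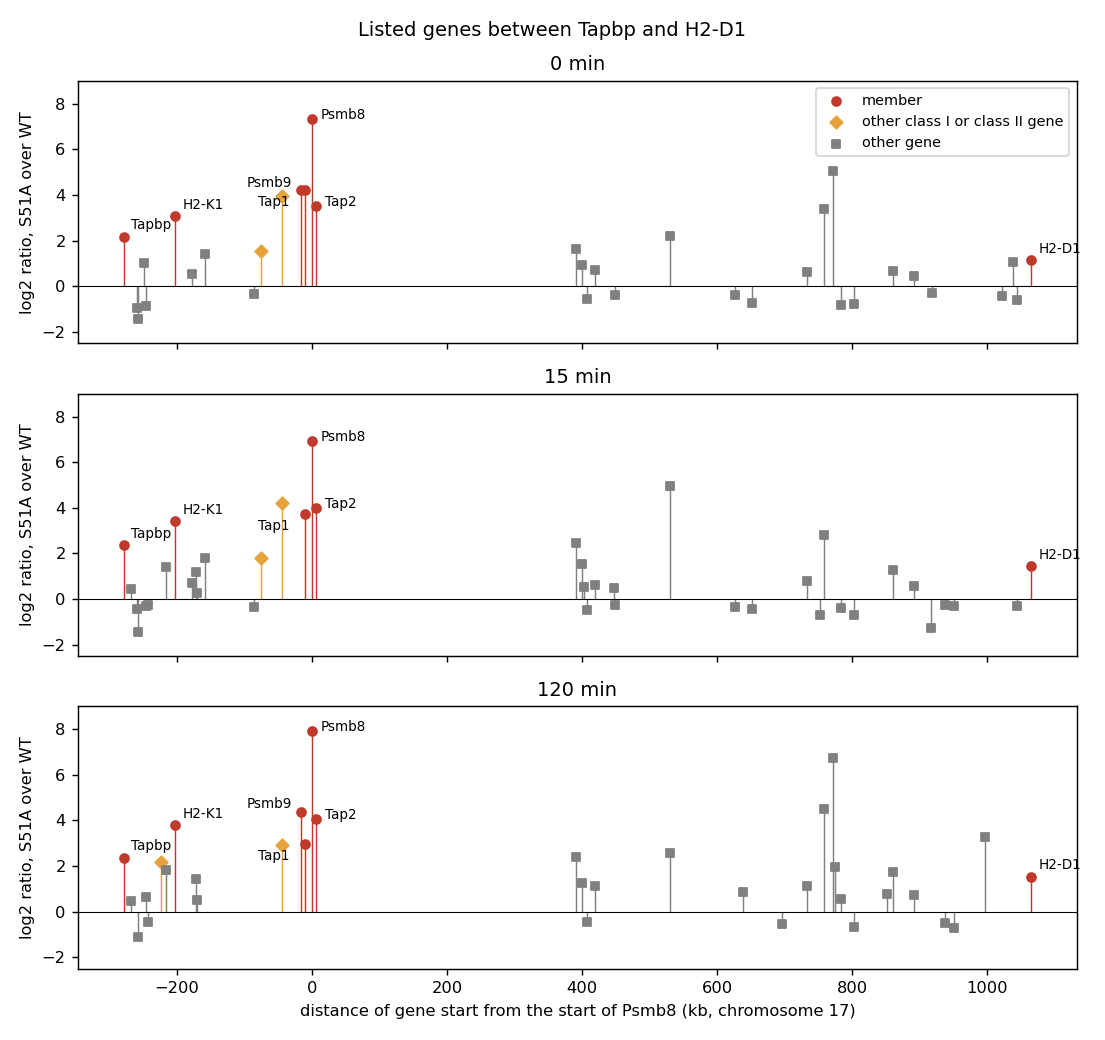
Log2 ratio of S51A over WT (authors' deposited values) against the distance of each listed gene's start from that of Psmb8 (kb), at 0, 15 and 120 min, for members (red circles), other class I or class II genes (orange diamonds) and other genes (grey squares), leaving out genes with a group at 0. The members all stand above 0, and the grey genes lie on both sides of it.

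Class II molecules present peptides to helper T cells. Of 9 class II genes, 3 were listed at 0 min, 3 at 15 min and 2 at 120 min, all higher in S51A. For this and the marker counts below, 49.6%, 49.9% and 50.9% of all entries were higher at these times. Cd74, the invariant chain gene, was at 12.6, 12.5 and 12.1 FPKM in S51A, against 1.41, 0.871 and 0.790 FPKM in WT. H2-DMb1, part of the class II peptide editor, was at 4.96, 4.89 and 5.86 FPKM in S51A, against 0.319, 0.266 and 0.774 FPKM in WT. The class II transactivator gene Ciita and the chains H2-Aa, H2-Ab1 and H2-Eb1 were listed at no time. Of 9 leukocyte and myeloid markers, 3 were listed at 0 min, all lower in S51A, with summed levels of 12.1 FPKM in S51A and 19.2 FPKM in WT. At 15 min 2 were listed, 1 higher and 1 lower, with sums of 12.9 FPKM in S51A and 15.1 FPKM in WT. At 120 min only Csf1r was, at 0.165 FPKM in S51A and 0.758 FPKM in WT. Ptprc, Adgre1, Itgam, Tyrobp and Spi1, and all T, NK, B, dendritic, epithelial and endothelial markers, were listed at no time, so their levels were not seen. Of 9 fibroblast markers, 8 were listed at 0 min (6 higher, 2 lower), 8 at 15 min (6 higher, 2 lower) and 6 at 120 min (5 higher, 1 lower). Their summed levels were 3804 FPKM in S51A and 2536 FPKM in WT at 0 min, 4094 FPKM in S51A and 2721 FPKM in WT at 15 min, and 2753 FPKM in S51A and 909.8 FPKM in WT at 120 min. At 0 min they included Col1a1 at 1160 FPKM in S51A and 240.5 FPKM in WT, Vim at 1075 FPKM in S51A and 1872 FPKM in WT, and the low Pdgfra at 6.15 FPKM in S51A and 3.71 FPKM in WT. All these sums cover only the markers listed at that time, so they cannot be compared between times. Vim, Fn1 and Pdgfra were not listed at 120 min, and S100a4 was not listed at 0 min. The part of these marker differences in the results was not tested.

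Within each line the members moved little in the first 15 min of peroxide. On the scale of log2(FPKM + 1), the median change of the 7 members listed in both tables was 0.14 in S51A and -0.07 in WT, beside 0.02 in S51A and 0.01 in WT for all 6369 such genes. At 120 min the median change from 0 min was 0.50 in S51A and 0.07 in WT for 7 members, beside -0.18 in S51A and -0.10 in WT for 4328 genes. In S51A, Psmb8 changed by 0.88, H2-K1 by 0.76, Psmb9 by 0.52, H2-D1 by 0.50 and Tap2 by 0.47. Tapbp was level at -0.04, and Tap1 had a negative change of -0.32. Among the regulators, Irf1 changed by 0.63 in S51A and -0.73 in WT, and Irf9 by -0.43 in S51A and -0.71 in WT. In WT the changes of members at 120 min lay between -0.21 for Tapbp and 0.40 for Tap1. These changes have no test, and the tables may have been scaled separately.

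At 120 min, transcript length also moved with the ratio. Over genes listed at 0 and 120 min, the median change of the log2 ratio was 0.55 for the 1368 with the shortest transcripts, -0.07 for the middle 1367 and -0.59 for the longest 1367. Among members in the shortest class, the change was 0.58 for Psmb8, 0.74 for H2-K1, 0.38 for H2-D1 and 0.18 for Psmb9. In the middle class it was 0.55 for Tap2, 0.19 for Tapbp and -1.24 for Tap1. Psmb5 and Psmb6, both in the shortest class, changed by 1.32 and 1.35. The part of length in these changes was not tested.

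The genes whose 3 ratios lay closest to the median of the 6 members listed at every time (log2 ratios 3.29, 3.58 and 3.40) were sought among 2947 genes. Those had at least 5 FPKM in either line at each time and no group at 0. The closest were Gbp3 and Pmaip1 (each at a Euclidean distance of 0.24 log2 units), Cdkn1c (0.37), C1ra (0.42), Rtp4 (0.46) and Creld1 (0.46). Cdkn1c reached 5 FPKM in WT as well, while the others met the minimum through S51A alone. Gbp3, an interferon-induced GTPase gene, was at 10.9, 12.3 and 11.4 FPKM in S51A at 0, 15 and 120 min, against 1.17, 0.895 and 1.14 FPKM in WT. Cdkn1c, a cell cycle inhibitor gene, was at 48.5, 55.0 and 68.1 FPKM in S51A, against 5.58, 5.70 and 6.06 FPKM in WT. The likeness rests on 3 values per gene and is a description.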

How the data were processed

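The 18 samples gave polyadenylated RNA, sequenced as directional libraries with single reads of 75 nt, per the labels' protocols. STAR, Cufflinks, Cuffdiff and the build mm10 appear in the submitters' processing notes, with neither version nor role. Per the file headers, the authors deposited, for each time, the log2 FPKM of S51A and of WT, their log2 ratio and a q-value, with replicates combined into 1 value per group. The deposited q-values are at most 0.05 throughout, every entry is marked significant, and a log2 FPKM of -10 stands for 0. No per-sample values were used, so no test across samples was made. The calls are the authors', and FPKM values and folds were computed from the deposited logs (Python 3.11.15, pandas 2.3.3). Entries with several or repeated symbols were left out of lists. Starts are the deposited ones plus 1. Promoters came from RefSeq (GRCm38.p6) and transcript lengths and shared stretches from GENCODE M21, taking the longest coding transcript.

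Members, lists and tests were chosen with earlier results of these data known. All members are named. In each list, the rule admitted up to 4 genes with the largest ratio at a time and at least 1 FPKM. Others named beside them were chosen after their values were seen, as was the motif GAANNGAAA. Counting, medians and distances were tested on simulated data. Values of 1 gene of the transcription factor list are not reported here.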

Additional observations from a re-analysis of the deposited data

Results flagged for a closer look

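Of 108 genes examined, 7 were called by the authors in opposite directions at different times, and none of them is a member. Whether the ratios differ between times was not tested, and the share of all genes called in opposite directions was not computed. Over all listed genes without a group at 0, the median log2 ratio was -0.28 at 0 min and 0.40 at 120 min. The part of that shift in the courses below was not tested. The log2 ratio of S51A over WT in the authors' deposited tables was -0.54 at 0 min and 0.78 at 120 min for Psmb5, and -0.96, -0.42 and 0.39 at 0, 15 and 120 min for Psmb6. The proteasome assembly genes followed the same course, with -0.81, -0.31 and 0.79 for Pomp, -0.61, -0.27 and 0.66 for Psmg1, -0.72 and 0.88 (0 and 120 min) for Psmg3, and -0.55 and 0.64 (0 and 120 min) for Psmg4. Lnpep, a trimming peptidase gene, went the other way, with 0.53, -0.55 and -1.59 at 0, 15 and 120 min.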

How the results depend on the processing

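Each of 15 results was recomputed under its alternatives, 34 in all, and none changed direction. For the counts, and for the members' median ratios except under centring, no change was possible, because every listed member was higher in S51A. Another pseudocount keeps the sign of each member's change over time, so the median change could not reverse under it either. The number of members higher in S51A at 0, 15 and 120 min was 7, 9 and 8 at a q-value of at most 0.01, and 7, 6 and 8 with a minimum fold of 2. A minimum of 1 FPKM in the higher line is no check here, since genes low in WT pass it through S51A. Without H2-K1 and H2-D1, an alternative chosen after seeing the data, it was 6, 7 and 7. Adding a pseudocount of 1 FPKM lowered the median log2 ratio of members to 2.47 at 0 min and 2.32 at 120 min. It lowered the log2 gap between the lines to 5.66 and 5.17 for Psmb8 over Psmb5, and to 3.01 and 2.10 for Psmb9 over Psmb6, at 0 and 120 min. By construction it shrinks ratios of genes under 1 FPKM in WT. Centring on the median of listed genes gave member medians of 3.58, 2.57 and 2.59 at 0, 15 and 120 min. It gave changes from 0 min of 0.12 and 0.68 in S51A and of -0.08 and 0.17 in WT at 15 and 120 min. No paired analysis was possible because the tables hold 1 combined value per group, and for the same reason no replicate could be left out. Depth and spread between samples are unknown, so the precision of the low WT values of Psmb8 and Psmb9 is unknown too. The authors' q-values are for the difference between the lines and do not give it.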

Other observations

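Interferon-induced GTPase genes of the guanylate-binding and immunity-related families, which defend cells against intracellular parasites, were higher in S51A for every listed gene, 9 of 14 at 0 min, 9 at 15 min and 7 at 120 min. Of all entries, 49.6%, 49.9% and 50.9% were higher at these times. The median log2 ratio of the listed GTPase genes was 3.83, 3.87 and 3.26. Igtp was at 11.3, 13.1 and 4.59 FPKM in S51A at 0, 15 and 120 min, against 0.136, 0.291 and 0.722 FPKM in WT. Irgm2 was at 7.11, 8.88 and 2.27 FPKM in S51A, against 0.138, 0.104 and 0.0439 FPKM in WT.

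Further H2-Q entries stood outside the lists because they carry a pair of symbols or were not included, and were named after their values were seen. H2-Q5 was at 0.993, 1.52 and 2.04 FPKM in S51A at 0, 15 and 120 min and was listed at 0 in WT each time. The joint entry of H2-Q7 and H2-Q9 was at 6.02 FPKM in S51A and 0.154 FPKM in WT at 15 min, and that of H2-Q6 and H2-Q8 at 2.19 FPKM in S51A and at 0 in WT. Cd1d1, a listed class I-like gene whose product presents lipids, was at 2.07 FPKM in S51A and 0.164 FPKM in WT at 0 min and at 3.29 FPKM in S51A and 0.186 FPKM in WT at 120 min.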
